A study of Mus musculus with 6 samples.

Results

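This account covers 10 genes of the calcineurin pathway in mouse regulatory T cells (Treg): the calcineurin subunits Ppp3ca, Ppp3cb, Ppp3cc and Ppp3r1, the transcription factors Nfatc1, Nfatc2 and Nfatc3, and the calcineurin inhibitors Rcan1, Rcan3 and Cabin1. They were taken by exact gene symbol from the 23282 entries of the count files, and all 10 were found once. The cells, CD4 T cells that keep immune responses in check, were FACS-sorted from C57BL/6 spleen and left unstimulated before their RNA was taken. There were 3 libraries from IPMK conditional knockout (IPMK cKO) Treg and 3 from wild type Treg. IPMK is inositol polyphosphate multikinase, which phosphorylates inositol phosphates and phosphoinositides, and the study asked how its loss bears on effector Treg and calcium influx. The sources used here do not give the Cre driver, the deleted part of Ipmk or the age of the mice. The labels number the libraries as biological replicates but name no animals. The p-values therefore speak to the variation among 6 libraries, some of which may be technical.

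Calcineurin is the calcium- and calmodulin-dependent phosphatase of T cell signalling. A catalytic A subunit, encoded by Ppp3ca, Ppp3cb or Ppp3cc, pairs with the calcium-binding B subunit encoded by Ppp3r1. When cytosolic calcium stays high, calcineurin removes phosphates from NFAT proteins, which then enter the nucleus and act with partners such as AP-1 or, in Treg, FOXP3. RCAN proteins and CABIN1 bind and inhibit calcineurin, and transcription of Rcan1 from an internal promoter is itself driven by NFAT, which makes Rcan1 a feedback inhibitor.

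The libraries held 7464546 to 8980395 counts, and 16.7% to 32.1% of them lay on the ribosomal RNA precursor Rn45s. Levels below are CPM, a gene's counts scaled to a common library size by the TMM method. Ipmk had 3, 21 and 0 counts in IPMK cKO replicates 1 to 3 against 129, 77 and 99 in wild type. IPMK cKO replicate 1 was compared with the median of the other 5 libraries. There 8.87% of the 5942 genes with a mean of at least 20 CPM were more than 4-fold below that median. The same share was not computed for the other libraries. All 7 Treg markers were detected, with a summed level of 2247 to 2642 CPM in IPMK cKO and 2304 to 3150 CPM in wild type. The sums were at most 13.1 CPM in IPMK cKO and 14.2 CPM in wild type for 5 B cell markers, and 14.4 to 85.6 CPM in IPMK cKO and 56.2 to 70.9 CPM in wild type for 5 myeloid markers, mostly from Cst3. They were 2.11 to 8.62 CPM in IPMK cKO and 7.82 to 12.2 CPM in wild type for 2 CD8 T cell markers, and 0 to 16.3 CPM and 0.120 to 55.1 CPM, in IPMK cKO and wild type, for 4 erythroid markers. Platelet markers summed to at most 6.50 CPM in IPMK cKO and 3.28 CPM in wild type, and NK cell markers to at most 0.102 CPM in IPMK cKO and 7.94 CPM in wild type. The part of other cells in the results was not tested. Of the defining markers, Cd8a, Pf4 and Ncr1 were at 0 in all 6 libraries, while others of the same lists were not. Cd8b1 had 15, 66 and 58 counts in IPMK cKO against 65, 89 and 95 in wild type. Itga2b, a platelet gene, had 10, 7 and 64 counts in IPMK cKO against 0, 24 and 25 in wild type, and the NK cell gene Klrb1c had 66 counts in wild type replicate 1. Foxp3, which defines the lineage, had 85.1, 72.0 and 82.3 CPM in IPMK cKO against 10.35, 80.6 and 29.0 CPM in wild type, so it was lowest in wild type replicate 1. In bulk RNA, fewer cells of a type and less RNA per cell cannot be told apart.

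RefSeq promoters on GRCm38.p6 were at hand for 7 of the 10 genes. Those of a pair of genes are printed, because Rcan1 was the member whose level differed most between libraries and Ppp3cb the only one whose groups did not overlap. Each sequence is the 250 bases before the start site, 5′ to 3′ on the gene's strand. Capitals mark the core NFAT motif GGAAA on either strand (TTTCC where it lies on the other strand). The motif has 5 bases and was counted with overlaps allowed.
Rcan1 distal promoter (chr16:92466170-92466419, minus strand): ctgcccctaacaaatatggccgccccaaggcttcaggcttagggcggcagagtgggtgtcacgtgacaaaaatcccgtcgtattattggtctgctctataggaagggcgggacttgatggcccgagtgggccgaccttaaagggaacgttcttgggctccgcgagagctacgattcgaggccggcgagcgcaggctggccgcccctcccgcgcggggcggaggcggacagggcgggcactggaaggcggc
Rcan1 internal promoter (chr16:92400079-92400328, minus strand): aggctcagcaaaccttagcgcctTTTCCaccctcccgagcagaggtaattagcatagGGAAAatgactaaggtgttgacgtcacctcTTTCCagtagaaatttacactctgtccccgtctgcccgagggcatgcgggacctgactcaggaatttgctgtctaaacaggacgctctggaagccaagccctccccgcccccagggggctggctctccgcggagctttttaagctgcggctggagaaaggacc
Ppp3cb promoter (chr14:20546574-20546823, minus strand): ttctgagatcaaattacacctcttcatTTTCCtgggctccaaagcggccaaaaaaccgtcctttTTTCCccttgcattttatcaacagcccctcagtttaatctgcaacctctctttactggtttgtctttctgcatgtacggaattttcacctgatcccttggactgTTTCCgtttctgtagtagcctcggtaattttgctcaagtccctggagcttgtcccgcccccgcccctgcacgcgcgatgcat

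The distal Rcan1 window held 0 matches and the internal window 3. The Ppp3cb window also held 3. Of the promoters not printed, those of Nfatc2 held 3 and 1 and those of Nfatc3 held 1 and 0. That of Rcan3 held 1, and those of Ppp3r1 and Cabin1 held 0. Of 32851 promoters cut to the same length, 55.6% held at least 1 match and 6.39% at least 3. A match is a string of letters and not a shown binding site. Counts here are per gene, so transcripts from the 2 Rcan1 promoters were not told apart.

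None of the 10 members passed the test for a difference between IPMK cKO and wild type, and neither did any other gene (0% of 10475 genes tested by edgeR at an adjusted p of 0.05). Over all genes tested, 51.8% of estimates lay above 0. Those of the members were spread on both sides of 0, with 6 above and 4 below. Their median log2 fold change was +0.06, against +0.03 over all genes tested. Of the 10 members, 1 had groups that did not overlap, against 10.4% of all genes tested in either direction. It was Ppp3cb, higher in every IPMK cKO library, as were 4.74% of tested genes. It was also the only member with an unadjusted p under 0.05, against 2.56% of all genes tested (1.37% higher and 1.19% lower in IPMK cKO).

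**Figure D1:**
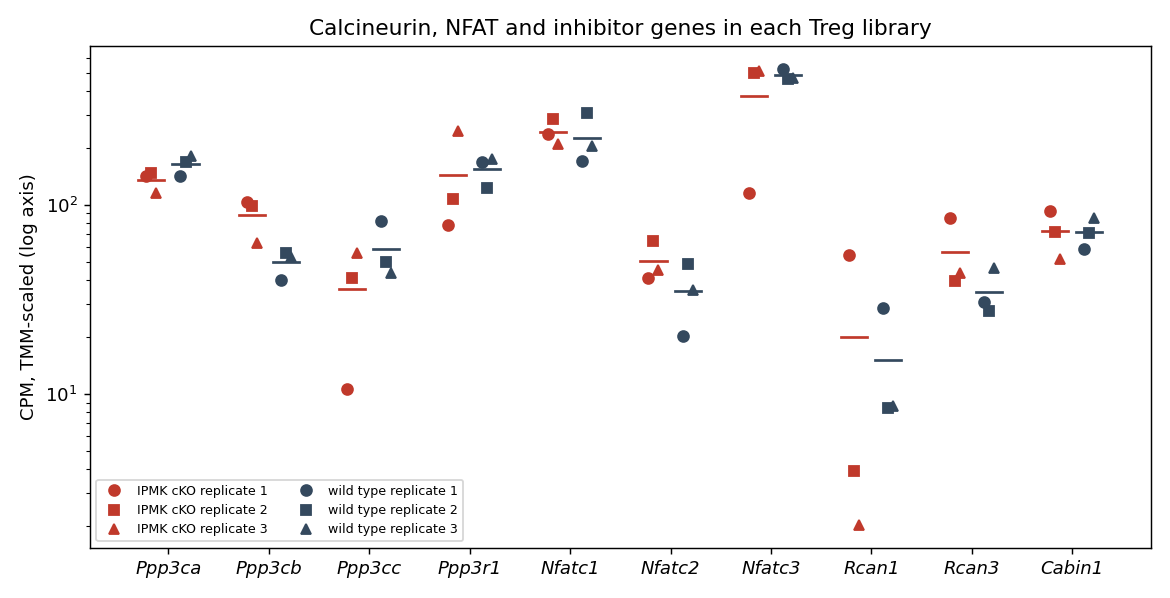
Level of each member (CPM on TMM-scaled library sizes, log axis) in IPMK cKO libraries (red, left of each gene) and wild type libraries (dark, right). Marker shapes give the replicate and horizontal lines the group means; Ppp3cb separates by group, while Nfatc3, Ppp3cc and Rcan1 have IPMK cKO replicate 1 far from the other 2.

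Among the catalytic subunits, Ppp3cb encodes calcineurin A beta, known as the main isoform in mouse T cells. By RNA counts here it was not the main one, with a mean share of catalytic counts of 18.2% in wild type. The wild type means were 60.1% for Ppp3ca and 21.7% for Ppp3cc. Ppp3cb had 103, 98.3 and 62.5 CPM in IPMK cKO replicates 1 to 3, against 40.1, 55.9 and 53.15 CPM in wild type. The lowest IPMK cKO library thus lay above the highest wild type library. The means were 88.0 ± 22.2 CPM in IPMK cKO and 49.7 ± 8.46 CPM in wild type (SD, n = 3 each), a ratio of 1.77, and the log2 fold change was +0.82 (SE 0.36; unadjusted p = 0.0446 and adjusted p = 0.9999 by edgeR's quasi-likelihood test with Benjamini-Hochberg adjustment). Leaving out any 1 library gave estimates of +0.69 to +1.02, and without both libraries numbered 1 the estimate was +0.56 (SE 0.36). The unadjusted p was above 0.05 in 5 of the 6 fits that left out 1 library. In GENCODE M21 on mm10 the gene (ENSMUSG00000021816) lies at chr14:20499364-20546573 on the minus strand.

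Ppp3ca, which encodes the alpha catalytic subunit, was the most counted of these 3 genes in every library. It had 141, 147 and 115 CPM in IPMK cKO against 142, 169 and 181 CPM in wild type. All but 1 of the IPMK cKO libraries lay below every wild type library, and the groups met where IPMK cKO replicate 2 passed wild type replicate 1. The log2 fold change was −0.28 (SE 0.28), so a span of 2 SEs ran from −0.85 to +0.28.

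Ppp3cc, the gamma catalytic subunit, known best for its role in testis, had 10.6, 40.9 and 55.9 CPM in IPMK cKO against 82.4, 49.9 and 43.6 CPM in wild type. It was lowest in IPMK cKO replicate 1 and highest in wild type replicate 1, and the other 4 libraries lay within 40.9 and 55.9 CPM. The log2 fold change was −0.71 (SE 0.58) with all libraries, −0.28 (SE 0.40) without IPMK cKO replicate 1, −0.38 (SE 0.68) without wild type replicate 1 and +0.05 (SE 0.39) without both.

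The summed level of the 3 catalytic genes overlapped between the groups. It was 255, 286 and 233 CPM in IPMK cKO against 264, 275 and 278 CPM in wild type (means 258 ± 26.6 and 272 ± 7.23 CPM, SD, n = 3 each; exact permutation test, two-sided p = 0.5). The difference of means was −13.8 CPM on TMM-scaled library sizes and −51.6 CPM on plain library totals (exact permutation p = 0.2). The makeup of the sum does not depend on that scaling. Ppp3cb took 40.5%, 34.3% and 26.8% of the catalytic counts in IPMK cKO replicates 1 to 3, against 15.2%, 20.4% and 19.1% in wild type. These shares did not overlap, and each rested on 1814 to 2671 counts. The nearest pair, IPMK cKO replicate 3 and wild type replicate 2, had 95% Wilson intervals of 25.0% to 28.6% and 18.7% to 22.2%, which cover counting error only, since PCR copies of a molecule were not removed by identifiers.

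The mean share of Ppp3cb was 33.9% ± 6.85 in IPMK cKO and 18.2% ± 2.71 in wild type (SD, n = 3 each), a difference of 15.6 percentage points. By an exact permutation test the two-sided p was 0.1, the lower limit for 3 libraries in each group, and 0.733 after adjustment over the 11 shares, sums and ratios compared. The difference was 12.3 points without IPMK cKO replicate 1 and 10.8 points without both libraries numbered 1. Ppp3ca took 55.4%, 51.4% and 49.2% in IPMK cKO against 53.6%, 61.5% and 65.2% in wild type, and these overlapped (exact permutation p = 0.2). Ppp3cc took 4.13%, 14.3% and 24.0% in IPMK cKO against 31.2%, 18.2% and 15.7% in wild type, also overlapping (exact permutation p = 0.4).

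Shares between genes assume that reads mark transcript ends. The labels name a Quant-Seq kit, but do not settle whether reads came from 3′ ends alone or from whole transcripts, where longer ones take more reads. The shares were therefore also computed per kilobase of the longest coding transcript (4758 bases for Ppp3ca, 3831 for Ppp3cb and 1970 for Ppp3cc). On that scale Ppp3cb took 43.5%, 33.2% and 23.7% in IPMK cKO against 12.7%, 19.4% and 18.7% in wild type, again without overlap. The order between Ppp3ca and Ppp3cc depended on the scale, since per kilobase Ppp3cc took 41.2% and Ppp3ca 35.1% in IPMK cKO replicate 3, and 51.0% and 36.3% in wild type replicate 1.

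**Figure D2:**
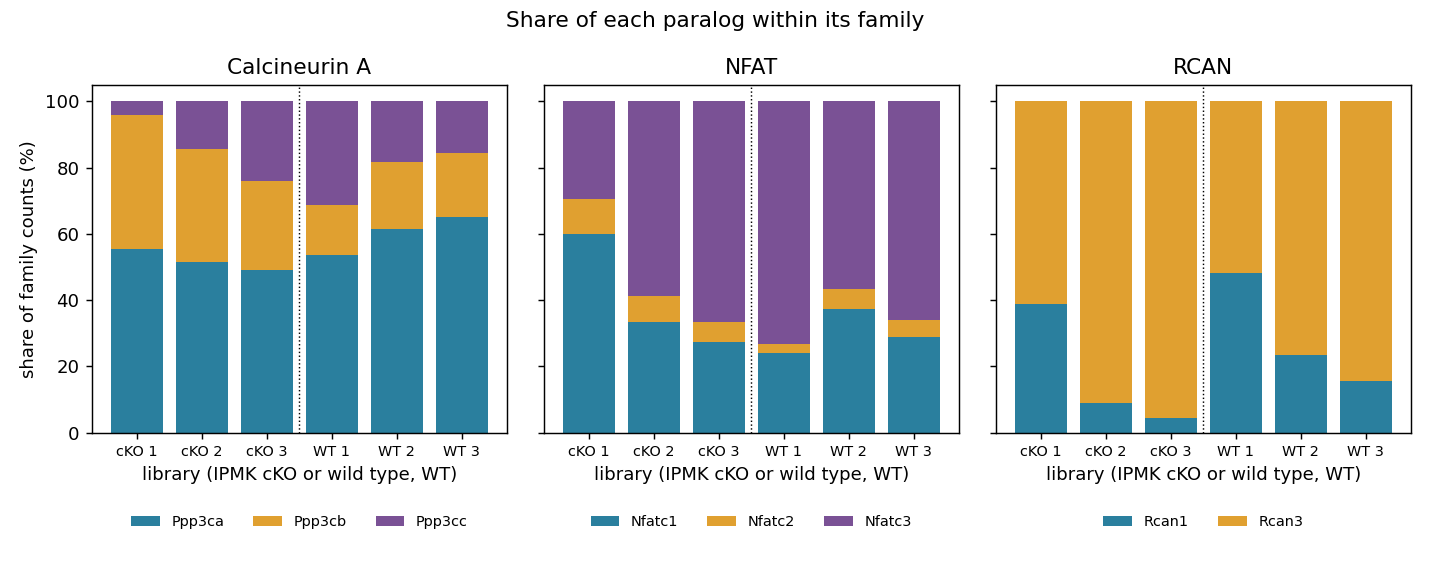
Share of each paralog in the counts of its family (%), stacked to 100 in each library, with the 3 IPMK cKO libraries left of the dotted line and the 3 wild type libraries (WT) right of it. The Ppp3cb band is 26.8% to 40.5% in IPMK cKO and 15.2% to 20.4% in wild type; the Nfatc3 band is 29.6% in IPMK cKO replicate 1 and 56.7% to 73.2% in the other libraries.

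Ppp3r1, the B subunit that the catalytic subunits need for activity, had 78.4, 107 and 246 CPM in IPMK cKO against 168, 123 and 175 CPM in wild type. The highest and the lowest library were both IPMK cKO. Its log2 fold change was −0.11 (SE 0.42) with all libraries, +0.18 (SE 0.34) without IPMK cKO replicate 1 and −0.74 without replicate 3. Relative to the summed catalytic counts it stood at 0.307, 0.374 and 1.05 in IPMK cKO against 0.636, 0.449 and 0.629 in wild type. The mean ratio was 0.578 ± 0.413 in IPMK cKO and 0.571 ± 0.106 in wild type (SD, n = 3 each; exact permutation p = 1). The difference, +0.0064 with all libraries, was −0.231 without IPMK cKO replicate 3. The end of Ppp3r1 overlaps Wdr92 on the same strand in GENCODE M21. Wdr92 had 31, 93 and 198 counts in IPMK cKO and 5, 123 and 194 in wild type, and reads in the overlap cannot be assigned. Its paralog Ppp3r2, a testis gene, had no count in any library, which allows up to 0.304 to 0.422 CPM per library (3 counts, counting error only).

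By mean level Nfatc3 and Nfatc1 were the most counted members in both groups. Nfatc3 encodes the NFAT factor also called NFAT4. It had 116, 500 and 509 CPM in IPMK cKO against 524, 462 and 467 CPM in wild type. A single library, IPMK cKO replicate 1, lay more than 4-fold below the median of the others, and the remaining 5 lay within 462 and 524 CPM. The log2 fold change was −0.37 (SE 0.46) with all libraries and +0.05 (SE 0.21) without IPMK cKO replicate 1.

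Nfatc1, whose inducible short isoform NFAT drives in activated lymphocytes, had 236, 285 and 211 CPM in IPMK cKO against 171, 304 and 205 CPM in wild type. Both the highest and the lowest library were wild type. The log2 fold change was +0.10 (SE 0.30), and 2 SEs spanned −0.50 to +0.71. Nfatc2, an NFAT factor present in resting T cells, had 41.0, 64.5 and 45.3 CPM in IPMK cKO against 20.3, 48.7 and 35.6 CPM in wild type. IPMK cKO replicate 2 lay above every wild type library, and wild type replicates 1 and 3 lay below every IPMK cKO library, but wild type replicate 2 exceeded the other 2 IPMK cKO libraries. Its log2 fold change was +0.53 (SE 0.47), and +0.25 without wild type replicate 1.

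Within the family, Nfatc3 took 29.6%, 58.8% and 66.6% of the counts in IPMK cKO against 73.2%, 56.7% and 66.0% in wild type (difference of means −13.7 points, exact permutation p = 0.5). Without IPMK cKO replicate 1 the difference was −2.62 points. Nfatc1 took 60.0%, 33.6% and 27.5% in IPMK cKO against 23.9%, 37.3% and 28.9% in wild type (exact permutation p = 0.6). Nfatc2 took 10.4%, 7.60% and 5.91% in IPMK cKO against 2.84%, 5.97% and 5.03% in wild type (exact permutation p = 0.2, adjusted 0.733). The shares of Nfatc2 nearly separated: the lowest in IPMK cKO, with a 95% Wilson interval of 5.40% to 6.47%, lay within counting error of the highest in wild type, with 5.40% to 6.60%. Per kilobase of transcript they did separate, at 8.05%, 6.20% and 4.89% in IPMK cKO against 2.36%, 4.82% and 4.14% in wild type. That difference was 2.61 points, with an exact permutation p = 0.1, the smallest possible. The difference in count shares, 3.37 points with all libraries, was 2.14 points without IPMK cKO replicate 1 and 1.26 points without both libraries numbered 1 (exact permutation p = 0.667).

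The summed NFAT level was 393, 849 and 765 CPM in IPMK cKO against 716, 815 and 707 CPM in wild type (exact permutation p = 0.9). The difference of means was −76.7 CPM with all libraries, −152 CPM on plain library totals and +61.5 CPM without IPMK cKO replicate 1. Of the NFAT genes outside the members, Nfatc4 had no count. Nfat5, the tonicity-responsive factor that calcineurin does not regulate, had 9.29, 104 and 76.4 CPM in IPMK cKO against 46.7, 100.2 and 67.9 CPM in wild type. Like Nfatc3 it was lowest in IPMK cKO replicate 1, and its log2 fold change of −0.18 (SE 0.67) became +0.33 without that library.

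Of the inhibitors, Rcan1 varied most. It had 54.0, 3.92 and 2.03 CPM in IPMK cKO, from 384, 30 and 20 counts, against 28.4, 8.47 and 8.63 CPM in wild type, from 236, 62 and 83 counts. The library numbered 1 was the highest in each genotype. The other 2 IPMK cKO libraries were the lowest of all 6. The log2 fold change was +0.40 (SE 1.13) with all libraries, −2.36 (SE 1.13; unadjusted p = 0.0610, edgeR adjusted p = 0.9997) without IPMK cKO replicate 1 and −1.52 (SE 1.41) without both libraries numbered 1. The direction for Rcan1 thus rested on 1 library. A 21.6-fold span separated its highest and lowest library, computed after adding 0.5 CPM, against a median span of 2.75-fold over the 5942 genes with a mean of at least 20 CPM, a level that Rcan1 itself did not reach. The gene (ENSMUSG00000022951) lies at chr16:92391953-92470867 on the minus strand in GENCODE M21 on mm10.

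Rcan3, a relative that likewise binds calcineurin, had 85.3, 39.5 and 43.6 CPM in IPMK cKO against 30.4, 27.6 and 46.3 CPM in wild type. IPMK cKO replicate 1 was the highest and wild type replicate 3 the next. The log2 fold change was +0.69 (SE 0.46), and +0.25 (SE 0.42) without IPMK cKO replicate 1. Rcan3 took 61.2%, 91.0% and 95.6% of the RCAN counts in IPMK cKO against 51.7%, 76.5% and 84.3% in wild type (exact permutation p = 0.5). Within both genotypes the library numbered 1 had the lowest share. Rcan2 had 1 count, in wild type replicate 2.

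Cabin1, which encodes a nuclear scaffold that binds calcineurin and MEF2 factors, had 93.2, 72.0 and 51.8 CPM in IPMK cKO against 58.5, 71.1 and 84.7 CPM in wild type. The groups covered nearly the same range, and the log2 fold change was +0.02 (SE 0.36). Rcan1, Rcan3 and Cabin1 together reached 232, 115 and 97.4 CPM in IPMK cKO against 117, 107 and 140 CPM in wild type (exact permutation p = 0.9). The difference of means was +27.1 CPM with all libraries, +0.947 CPM on plain library totals and −15.0 CPM without IPMK cKO replicate 1.

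**Figure D3:**
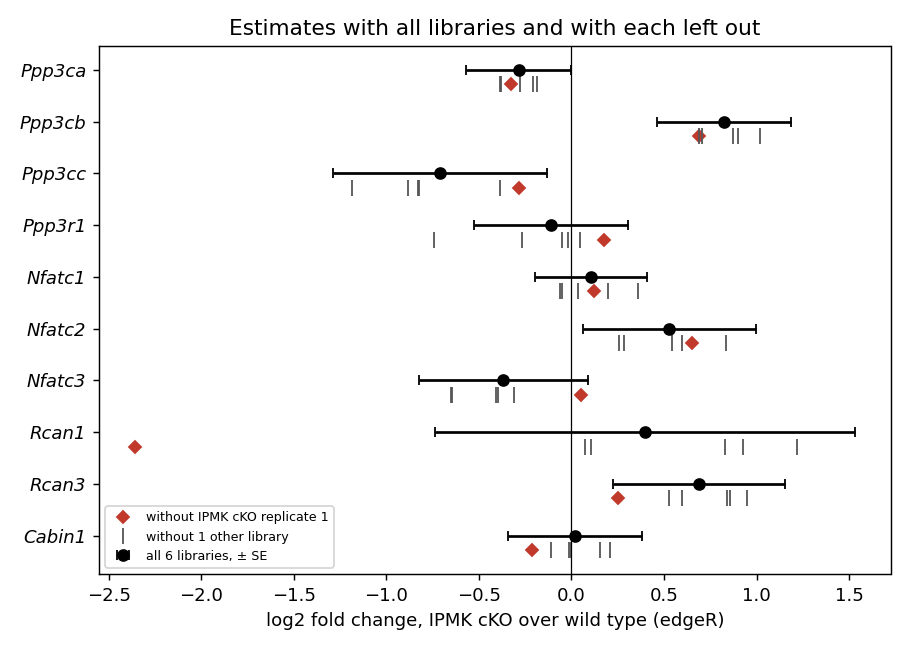
Log2 fold change of each member, IPMK cKO over wild type, by edgeR: black points with bars of 1 SE are all 6 libraries, red diamonds leave out IPMK cKO replicate 1 and grey ticks leave out 1 other library. Ppp3cb stays between +0.69 and +1.02, while Rcan1 is at +0.40 with all libraries and −2.36 without IPMK cKO replicate 1.

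IPMK cKO replicate 1 was the extreme library for 7 of the 10 members. It was the highest for Ppp3cb, Rcan1, Rcan3 and Cabin1 and the lowest for Ppp3cc, Ppp3r1 and Nfatc3. Against the median of the other 5 libraries it lay at log2 −2.19 for Ppp3cc, −2.10 for Nfatc3, −1.09 for Ppp3r1, +1.10 for Rcan3 and +2.60 for Rcan1. Over the 5942 genes with a mean of at least 20 CPM, 20.5% were more than 2-fold below and 17.4% more than 2-fold above that median there. These shares were not computed for the other libraries. Nor was the share of all genes for which this library was the extreme, so 7 of 10 has no base rate beside it. What lies behind its values was not tested.

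Ordered by level per kilobase in wild type, Nfatc3 came first with 80.9 ± 5.78 CPM per kilobase, above the range of the next gene. Ppp3r1 (54.3 ± 9.74), Nfatc1 (47.2 ± 14.4), Ppp3ca (34.4 ± 4.26) and Ppp3cc (29.8 ± 10.6) followed, each with a range that overlapped its neighbour's. Ppp3cb (12.97 ± 2.21 CPM per kilobase) lay below the range of Ppp3cc on this scale. Without division by length the wild type ranges of these genes overlapped, with means of 49.7 CPM for Ppp3cb and 58.6 CPM for Ppp3cc. Cabin1, Rcan3, Rcan1 and Nfatc2 came last, between 9.63 and 5.10 CPM per kilobase, with overlapping ranges. In IPMK cKO the neighbours overlapped all the way, from Nfatc3 (62.7 ± 37.5 CPM per kilobase) to Nfatc2 (7.36 ± 1.84; SD, n = 3 for each value).

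The genes most like the summed calcineurin A level over the 6 libraries were Pfkfb3, a regulator of glycolysis, Fbxw7, a ubiquitin ligase subunit, and Papd5, a poly(A) polymerase (Pearson r of log2 CPM 0.978, 0.972 and 0.970). For the summed NFAT level they were Peli1, a ubiquitin ligase of T cell signalling (r = 0.9999), Smek1, a regulatory subunit of protein phosphatase 4 (r = 0.997), and Tet2, a DNA demethylating enzyme (r = 0.995). These 3 were also lowest in IPMK cKO replicate 1, and r was 0.998, 0.972 and 0.928 over the 5 libraries without it. Without the 2 libraries farthest from the median of the summed level, r was 0.875 to 0.918 for the first 3 genes and 0.944 to 0.998 for the others, over 4 libraries. They were the best of 5933 candidates and share library and depth with the sums, so r is a description: 52 genes exceeded 0.9 for calcineurin A and 462 for NFAT.

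In the wider pathway 0 genes passed the edgeR test in either direction. Beside the counts of estimates that follow, 51.8% of all genes tested had an estimate above 0. All 9 calmodulin and immunophilin genes were tested, with 2 estimates above 0, 7 below and a median of −0.15 on the log2 scale. Their smallest p-values were those of the cyclophilin Ppia (−0.36, SE 0.34) and the calmodulin genes Calm3 (−0.30, SE 0.29) and Calm2 (+0.18, SE 0.27). Ppia moved with single libraries, to −0.11 when IPMK cKO replicate 1 was left out and to −0.72 when replicate 3 of that genotype was. Of the kinases that rephosphorylate NFAT, 7 of 8 were tested, with 6 above 0 and 1 below (median +0.19). Gsk3a, the alpha form of glycogen synthase kinase 3, was at +0.68 (SE 0.41), Dyrk2 at +1.42 (SE 1.16) and Dyrk1a at +0.38 (SE 0.38). Leaving out 1 library at a time, Gsk3a ran from +0.37 (without IPMK cKO replicate 3) to +0.96 (without IPMK cKO replicate 2), Dyrk2 from +0.89 (without wild type replicate 3) to +1.92 (without wild type replicate 1) and Dyrk1a from +0.094 (without IPMK cKO replicate 1) to +0.68 (without IPMK cKO replicate 3).

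Of 9 NFAT scaffolds and transport factors, 6 were tested, with 3 above 0, 3 below and a median of −0.12. The scaffold Homer3, which competes with calcineurin for NFAT, had 68.2, 36.1 and 28.9 CPM in IPMK cKO against 14.0, 14.4 and 17.2 CPM in wild type. Every IPMK cKO library lay above every wild type library, as was so for 4.74% of tested genes. The means were 44.4 ± 20.9 CPM in IPMK cKO and 15.2 ± 1.75 CPM in wild type (SD, n = 3 each), with a log2 fold change of +1.55 (SE 0.54; unadjusted p = 0.0160, edgeR adjusted p = 0.9999). Without IPMK cKO replicate 1 it was +1.09 (SE 0.53). Homer1 was at −0.90 (SE 0.95) and the ubiquitin ligase subunit Cul7 at −1.56 (SE 1.96). Without wild type replicate 1 they were at −0.49 and −0.11.

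All 12 partner factors were tested, with 7 above 0, 5 below and a median of +0.03. The 3 with the smallest p-values lay below wild type in every IPMK cKO library, where 5.66% of tested genes did so. Maf, a factor of effector and follicular T cells, averaged 214 ± 43.7 CPM in IPMK cKO and 417 ± 115 CPM in wild type (SD, n = 3 each; −0.96, SE 0.31). Junb, an AP-1 subunit, averaged 127 ± 55.5 CPM in IPMK cKO and 243 ± 59.5 CPM in wild type (−0.93, SE 0.36), and Batf was at −0.74 (SE 0.38). With each library left out in turn, Maf ran from −1.17 to −0.79, Junb from −1.36 to −0.71 and Batf from −0.93 to −0.53. Without both libraries numbered 1, Maf was at −0.78, Junb at −0.50 (SE 0.34) and Batf at −0.80. Of 10 other calcineurin substrates, 9 were tested, with 4 above 0, 5 below and a median of −0.0071. Bad, a cell death regulator, was at +0.55 (SE 0.57), the CREB coactivator Crtc2 at −1.07 (SE 1.28) and Tfe3 at +0.54 (SE 0.77). Single libraries moved all 3: Bad was at −0.26 without IPMK cKO replicate 1, Crtc2 ran from −3.45 (without IPMK cKO replicate 3) to −0.37 (without wild type replicate 3), and Tfe3 from +0.056 (without wild type replicate 3) to +1.19 (without wild type replicate 1).

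Of 24 known NFAT target genes, 16 were tested, with 3 above 0, 13 below and a median of −0.43. Among all genes tested 51.8% lay above 0, with a median of +0.03. Again 3 of the targets lay below wild type in every IPMK cKO library and 0 above, against 5.66% and 4.74% of all genes tested. Icos, a costimulatory receptor, had 210, 291 and 196 CPM in IPMK cKO against 294, 460 and 351 CPM in wild type (−0.67, SE 0.29; unadjusted p = 0.0451, edgeR adjusted p = 0.9999). Its lowest wild type library exceeded the highest IPMK cKO library by little. The transcription factor Prdm1 was at −0.87 (SE 0.47) and the checkpoint receptor Pdcd1 at −1.19 (SE 0.65). Leaving out 1 library at a time, Prdm1 ran from −1.25 to −0.59 and Pdcd1 from −1.92 (without IPMK cKO replicate 3) to −0.70 (without IPMK cKO replicate 1). Several of these targets are also genes of effector Treg, and whether that bears on their estimates was not tested. The cytokine genes Il2 and Csf2 had no count in any library.

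**Figure D4:**
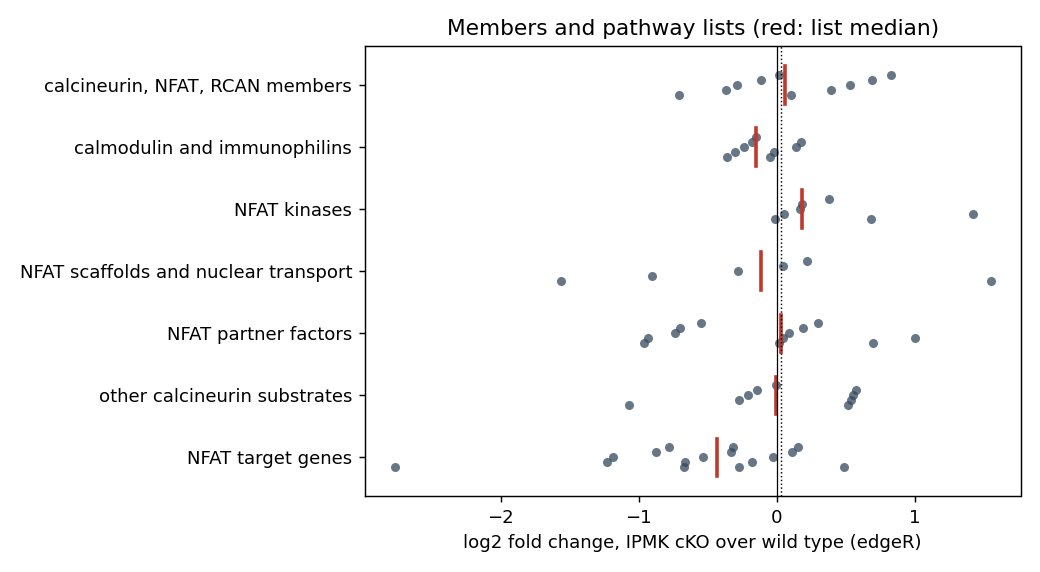
Log2 fold change, IPMK cKO over wild type, of every tested gene in the member list and in 6 lists of the pathway (dots, spread vertically only to separate them). Red bars are list medians, from −0.43 for NFAT target genes to +0.19 for NFAT kinases, and the dotted line is the median of all genes tested, +0.03.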

How the data were processed

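Treg RNA was extracted with Trizol and made into libraries with a LEXOGEN Quant-Seq kit, per the labels' protocols. What the authors deposited are counts per gene symbol, whole numbers that were not normalized, per the file headers and values. The submitters' processing notes list Bowtie2, edgeR, mm10 and hg19 without saying what each was for. The sources used here do not give the counting program, annotation or strand setting, so overlapping and antisense genes cannot be separated. In GENCODE M21 the ends of Ppp3cc and Nfatc3 each overlap a gene on the other strand. Counts of Ppp3cc enter the catalytic shares.

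Libraries were grouped by their title labels. Genes passing edgeR's filterByExpr (minimum count 10) were scaled by TMM and tested with the quasi-likelihood test of edgeR 4.0.16 in R 4.3.3, with Benjamini-Hochberg adjustment over the 10475 genes and a threshold of 0.05. SEs are the estimate over the square root of F. Shares, sums and ratios were compared over libraries by exact permutation tests, two-sided (SciPy 1.17.1), whose smallest p is 0.1. Wilson intervals are at 95%. Depth was 7464546 to 8980395 counts per library. Transcript lengths and gene overlaps came from GENCODE M21 on mm10. The edgeR fit was also run on simulated counts, with changes larger than the members' estimates. That run does not speak to differences as small as theirs.

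Members and gene lists were chosen with earlier results of these data known. The genes named are the members, Ipmk, 4 further family genes, the 3 tested genes with the smallest p in each list, and the 3 most like each of 2 summed levels. Il2, Csf2, Wdr92 and Gdpd3, the genes that DESeq2 called and the cell type markers named stand outside that rule and were named after their values were seen. Alternatives were DESeq2 1.42.0, other size factors, no filter, Rn45s left out, the replicate block, pooled counts and each library left out. The per-kilobase shares and leaving out both libraries numbered 1 were added after seeing the data.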

Additional observations from a re-analysis of the deposited data

How the results depend on the processing

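Of the 10 members, Ppp3ca, Ppp3cb, Nfatc2 and Rcan3 kept their direction under every alternative run, and no member was called under any. By edgeR 0 genes were called higher and 0 lower with all libraries, with 143 higher and 125 lower at an unadjusted p under 0.05. DESeq2 called 1 higher (Phospho1) and 3 lower (S100a6, S100a11 and Smpdl3b). Leaving out 1 library at a time, edgeR called 0 to 1 lower; the 1 was Gdpd3, called without IPMK cKO replicate 1 and, again as the 1 call, without both libraries numbered 1. DESeq2 gave no p for Rcan1.

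Some estimates changed sign with single libraries. Leaving out 1 library at a time, log2 fold changes ran from −0.74 to +0.18 for Ppp3r1, −0.063 to +0.36 for Nfatc1, −0.65 to +0.053 for Nfatc3, −2.36 to +1.22 for Rcan1, −0.21 to +0.21 for Cabin1 and −0.75 to +0.33 for Nfat5. They ran from −0.26 to +0.91 for Bad, −0.997 to +0.17 for Fbxw7, −0.41 to +0.11 for Peli1, −0.70 to +0.15 for Smek1 and −0.77 to +0.35 for Tet2. Differences of means ran from −167 to +61.5 CPM for the summed NFAT level, −15.0 to +52.6 CPM for the summed inhibitors and −0.231 to +0.142 for the ratio of Ppp3r1 to calcineurin A. On plain library totals the summed levels differed by −51.6 CPM for calcineurin A, −152 CPM for NFAT and +0.947 CPM for the inhibitors, and the NFAT sum by −104 CPM with Rn45s left out. Without both libraries numbered 1, log2 fold changes were +0.051 for Ppp3cc, +0.24 for Ppp3r1, −0.039 for Nfatc1, +0.12 for Nfatc3, −1.52 for Rcan1, −0.33 for Cabin1 and +0.10 for Nfat5. They were −0.0084 for Dyrk1a, +0.47 for Cul7, −0.32 for Bad, +0.089 for Peli1, +0.089 for Smek1 and +0.15 for Tet2. There the share differences were +2.20 points for Ppp3cc, −2.60 for Nfatc1 and +1.34 for Nfatc3, and the sums differed by +46.4 CPM for NFAT and −17.0 CPM for the inhibitors. The cause of these changes was not tested, beyond the values of IPMK cKO replicate 1 given above.

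The labels do not say whether the replicate numbers pair the samples. Deviations of same-numbered libraries correlated at 0.036, 0.080 and 0.031. Every library correlated best with its own number, a hint from the data only, so pairing was not settled. With the replicate block the counts of calls stayed at 0, the members' median was −0.14, Rcan1 was at −0.76 and Cabin1 at −0.0063; the difference in the Ppp3cb share was 15.6 points, with a smallest possible sign-flip p of 0.25. With 3 libraries a group, estimates with SEs of 0.28 to 1.13 leave modest differences in the members undetectable.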
